A study of Mus musculus with 6 samples.

Results

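The C-type lectins examined here are the genes of the Clec and Cd209 families in mouse inguinal lymph nodes, measured by RNA sequencing in 3 libraries labelled Control and 3 labelled Naringin. A gene was taken when its symbol began with Clec and a digit, or was Cd209 followed by a letter from a to g, and when it had at least 1 read in at least 1 library. Of 41 rows with such a symbol, 37 had a read: 7 Cd209 genes and 30 Clec genes, out of 28727 genes with a read and 50559 in the table. Mice of the Naringin group ate food mixed with naringin, a flavonoid of citrus fruit, at a daily 200 mg/kg before their inguinal nodes were removed. The sources used here do not give strain, age, sex, how long the feeding lasted or what the Control mice ate. No label states whether a group's libraries came from separate animals, so the spread between them may be partly technical. The Cd209 family was chosen by its CPM in this same contrast, since several of its genes were already known to have lower values with naringin, so its differences are a description, with no test. At the edge of the rule, Clec2m was kept with 3 reads in all, while Clec3a, Clec18a, Clec2h and Clec2j had 0 reads. One library stood apart over all genes: comparing read counts pair by pair, chi-square divided by its degrees of freedom was 39.3 to 61.6 in the 5 pairs with Control 3 and 7.68 to 27.7 in the other 10. Without Control 3 the log2 folds (Naringin minus Control) of Cd209a, Cd209e, Cd209f and Cd209g were -0.57, -1.02, -1.38 and -1.93.

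C-type lectins are receptors and secreted proteins that share a fold which, in many of them, binds sugars in a calcium-dependent way. In a lymph node, Cd209 proteins, the mouse relatives of the human dendritic cell receptor DC-SIGN, sit on dendritic cells and on the macrophages of the lymph sinuses, where they capture glycans of microbes. Receptors of the Dectin type on macrophages, dendritic cells and neutrophils recognise fungal and bacterial surfaces and signal through the kinase Syk and the adaptor Card9, while several relatives carry inhibitory motifs instead.

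With naringin, 4 of the 7 Cd209 genes lay lower in every library than in any control library: Cd209a, Cd209e, Cd209f and Cd209g. Genes with that arrangement made up 2.29% of the 14873 genes tested, but this contrast chose the family, so nothing is read from the difference. None of the 22 tested Clec genes had groups that did not overlap, against 5.65% of all tested genes, 3.36% being higher with naringin. Log2 folds were below 0 in 6 of 7 Cd209 genes and 10 of 22 Clec genes and above 0 in the others, against 43.3% below and 56.7% above over all tested genes. The median log2 fold, taken on log2(CPM + 1) as Naringin minus Control, was -0.71 over the 7 Cd209 genes, 0.02 over the 22 tested Clec genes and 0.02 over all tested genes. CPM is a gene's reads per 1000000 reads assigned to genes. The Clec count is close to that background share and is not read as a result about the Clec genes. Limma with Benjamini-Hochberg adjustment called 0 of 14873 genes, or 0%, at an adjusted p under 0.05, with 213 (1.43%) at an unadjusted p under 0.05, of which 0.457% of all genes were lower and 0.975% higher, and the smallest adjusted p was 0.9996. DESeq2 on reads recovered from the CPM called 3 genes (0.0202%), Fgf23, Cd209f and Cd209g, with 227 (1.53%) at an unadjusted p under 0.05. Nothing is read from the calls of Cd209f and Cd209g, since the same values chose the family. EdgeR called 0, with 233 (1.57%) at an unadjusted p under 0.05.

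Cd209f and Cd209g also stood apart from their relatives in sequence. In RefSeq's GRCm38.p6 promoters, which run from 250 bases before to 50 after a gene's start, these genes shared an unbroken identical run of 180 bases. That run occurred in no other promoter of the 32851 in the table. Over all other pairs of Cd209 promoters the longest identical run was 17 bases, between Cd209a and Cd209b. The promoters of Cd209f and Cd209g matched at 260 of 280 aligned bases, or 92.9%. Other pairs matched at 66.3% (Cd209c and Cd209f) to 81.95% (Cd209a and Cd209d) of their aligned bases, over 27 to 261 bases. Cd209b matched Cd209f at 71.8% of 206 aligned bases and Cd209g at 75.1% of 185. The 250 bases before each start are printed 5′ to 3′ on the gene's own strand, for Cd209f, Cd209g and the abundant Cd209b. Cd209f and Cd209g are the tested members with the highest ratios of control to naringin mean. Most of these bases lie in their unbroken shared run, which Cd209b lacks. Capitals in Cd209f and Cd209g mark the shared run, which goes on past the start, and capitals in Cd209b mark the longest run it shares with Cd209g, 10 bases.
Cd209f, chr8:4105765-4106014, minus strand: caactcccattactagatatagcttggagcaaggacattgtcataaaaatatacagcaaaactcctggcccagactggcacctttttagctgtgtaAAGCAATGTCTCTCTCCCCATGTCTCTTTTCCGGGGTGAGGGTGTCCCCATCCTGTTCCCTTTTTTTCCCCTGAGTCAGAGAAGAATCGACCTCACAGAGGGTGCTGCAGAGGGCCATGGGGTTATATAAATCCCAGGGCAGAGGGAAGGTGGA
Cd209g, chr8:4134486-4134735, plus strand: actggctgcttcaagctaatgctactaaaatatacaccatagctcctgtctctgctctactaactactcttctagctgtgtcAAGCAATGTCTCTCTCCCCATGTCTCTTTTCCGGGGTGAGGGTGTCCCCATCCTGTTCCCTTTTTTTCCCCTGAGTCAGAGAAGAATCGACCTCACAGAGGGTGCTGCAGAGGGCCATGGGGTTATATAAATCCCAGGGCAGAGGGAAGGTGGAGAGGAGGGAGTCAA
Cd209b, chr8:3926842-3927091, minus strand: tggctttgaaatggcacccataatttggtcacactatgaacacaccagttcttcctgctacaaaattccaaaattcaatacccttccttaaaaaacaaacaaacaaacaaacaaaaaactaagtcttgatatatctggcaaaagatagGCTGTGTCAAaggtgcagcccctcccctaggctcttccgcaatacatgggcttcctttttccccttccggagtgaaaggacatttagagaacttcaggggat
The run spans positions -154 to 26 of Cd209f and -168 to 12 of Cd209g, where 1 is the start and -1 the base before it. It holds the TATA box letters TATAAA at -29 to -24 in Cd209f and at -43 to -38 in Cd209g. Searched on both strands, TATAAA occurred in 13.6% of all promoters and in 3 of the 7 Cd209 genes, Cd209a, Cd209f and Cd209g. Here a gene counts once if any of its promoters holds the letters. The 32851 promoters belong to 27025 genes, so shares of promoters and counts of genes are unlike units and are not compared. A core often bound by the myeloid factor PU.1, GAGGAA, occurred in 28.3% of all promoters, in 1 of the 7 Cd209 genes (Cd209d) and in 14 of the 31 member genes with a promoter. The core of the interferon-stimulated response element occurred in 3.44% of all promoters, in 0 of 7 Cd209 genes and in the member genes Clec2d, Clec4b1 and Clec4d. These matches describe letters only.

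**Figure D1:**
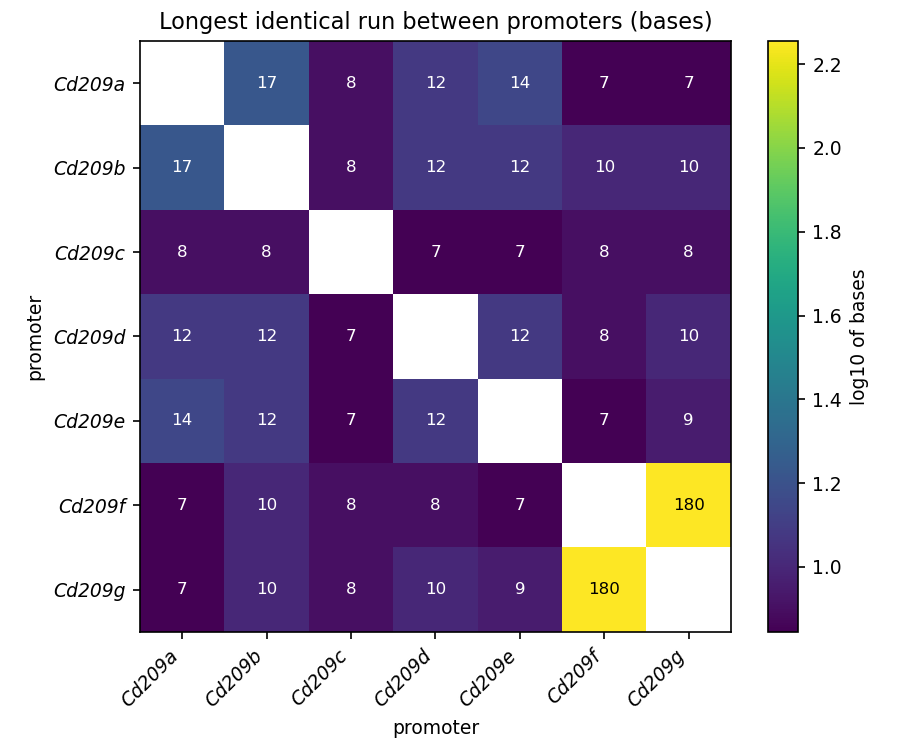
Longest identical run, in bases, between the 300-base promoters of each pair of Cd209 genes, with colour on a log10 scale. The pair Cd209f and Cd209g shares 180 bases, and no other pair shares more than 17.

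The likeness extends into the transcripts. Of all 50-base windows of the longest GENCODE M21 transcript, 25.9% in Cd209f occurred exactly in a Cd209g transcript, and 13.9% in Cd209g occurred in Cd209f. The other 5 Cd209 genes shared 0% with any member. Among Clec genes the largest shares were 15.7% of Clec4a4 and 9.73% of Clec4b1, both with Clec4a2. The sources used here do not say how reads matching more than 1 place were counted, so the division of reads between Cd209f and Cd209g is uncertain.

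Cd209g had the lowest naringin mean relative to control among the 29 tested members. Its level was 11.8, 7.73 and 7.28 CPM in Control 1, 2 and 3 and 2.81, 1.80 and 0.981 CPM in Naringin 1, 2 and 3, resting on 107 to 154 reads per control library and 14 to 42 per naringin library. Every naringin library lay below every control library, and the control mean was 4.79 times the naringin mean (8.93 ± 2.48 against 1.87 ± 0.918 CPM, SD, n = 3 each). Cd209f was next among them, at 38.4, 27.3 and 24.8 CPM in the controls and 17.1, 11.7 and 8.13 CPM with naringin, a 2.45-fold higher control mean. Both genes ranked the 6 libraries in the same order, with Control 1 highest and Naringin 3 lowest. Their log2 folds were -1.82 ± 0.29 and -1.26 ± 0.27 (SE), and leaving out any 1 library kept them between -2.05 and -1.58 and between -1.51 and -1.02. The adipocyte markers also had Control 1 highest and Naringin 3 lowest in their summed CPM, at 54.9 and 5.53. Between them lay Control 2 at 21.3, Naringin 1 at 20.3, Naringin 2 at 19.5 and Control 3 at 13.5. Control 3 was thus below Naringin 1 and Naringin 2, unlike in Cd209f and Cd209g. The median log2 fold of the 4 tested adipocyte markers was -0.66, with 4 below 0, and their part in the Cd209 values was not tested. Without Control 1 the log2 folds of Cd209g and Cd209f were -1.62 and -1.08.

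The ratio of Cd209g to Cd209f is given as a description only, since both genes were picked by these same values. Controls had ratios of 0.307, 0.283 and 0.294, and Naringin libraries 0.165, 0.154 and 0.121, with no overlap. The mean ratio was 0.295 ± 0.0119 in Control and 0.147 ± 0.0230 with naringin (SD, n = 3 each). Reads shared between the pair touch this ratio directly.

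Cd209a, the mouse gene named as the counterpart of DC-SIGN and used as a marker of monocyte-derived and some conventional dendritic cells, showed a smaller difference in the same direction. Its level was 15.2, 21.2 and 17.0 CPM in the controls and 10.8, 15.0 and 10.1 CPM with naringin. The highest naringin library, Naringin 2, lay just under the lowest control, Control 1, and the log2 fold was -0.55 ± 0.20 (SE). Cd209e stood at 6.73, 16.6 and 7.75 CPM in the controls and at 4.96, 4.81 and 4.48 CPM with naringin. Its groups did not overlap, but Control 2 lay far above the other controls, and the log2 fold of -0.88 ± 0.30 (SE) became -0.52 without it.

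Groups overlapped in the other 3 members of the family. Cd209d was at 22.0, 48.8 and 52.5 CPM in the controls and at 22.2, 28.4 and 19.3 CPM with naringin. Control 1 lay within the naringin range, and the log2 fold of -0.71 ± 0.31 (SE) was -1.10 without it. Cd209c ranged from 3.54 to 4.84 CPM in the controls and from 2.14 to 4.15 CPM with naringin, with a log2 fold of -0.35 ± 0.24 (SE) that was -0.54 without Naringin 1 and -0.19 without Naringin 2. Cd209b, which lets macrophages of lymph sinuses and the splenic marginal zone take up polysaccharides, measured 356, 617 and 738 CPM among controls against 1043, 693 and 267 CPM in the Naringin libraries. Naringin held both its highest and its lowest library, and its log2 fold of 0.08 ± 0.48 (SE) was -0.34 without Naringin 1, -0.046 without Naringin 2, -0.22 without Control 1 and 0.64 without Naringin 3.

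**Figure D2:**
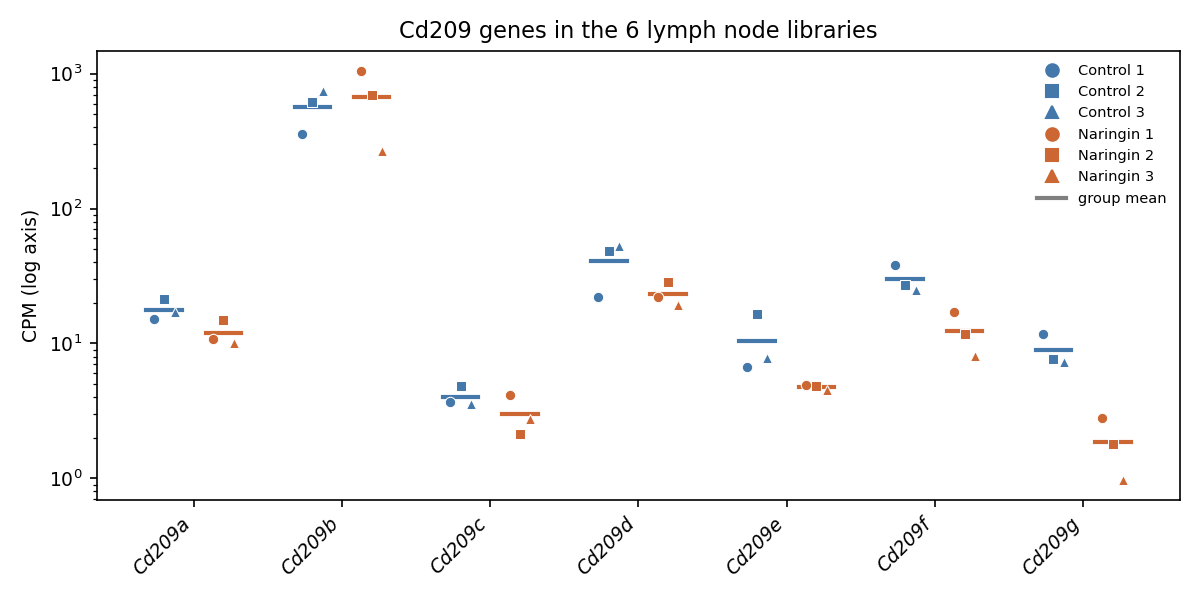
CPM of each Cd209 gene in each library on a log axis, with Control in blue, Naringin in orange, marker shapes for the replicate number and bars for group means. Naringin points lie below all control points in Cd209a, Cd209e, Cd209f and Cd209g, while Cd209b spans 267 to 1043 CPM within the Naringin group.

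Per kilobase of exon, Cd209b was the most abundant member, at a mean of 293 CPM per kb over the 6 libraries, with Cd209d at 35.0, Cd209f at 10.7, Cd209a at 9.40, Cd209e at 4.20, Cd209c at 1.76 and Cd209g at 1.50. Cd209b made up 78.4% to 86.7% of the family's summed CPM in the controls and 85.4% to 94.4% with naringin. The family sum had a mean of 683 ± 206 CPM over controls against 725 ± 397 CPM over Naringin libraries (SD, n = 3 per group) and therefore mainly followed Cd209b and overlapped between groups. Cd209f and Cd209g together took 11.1%, 4.72% and 3.77% of that sum in the controls and 1.80%, 1.78% and 2.91% with naringin, with no overlap. Both genes were picked by these same values, so nothing is read from that difference. In whole tissue, fewer cells of a type and less RNA per cell cannot be told apart.

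The Dectin-2 cluster holds activating receptors for fungal and mycobacterial glycans next to inhibitory relatives, all on chromosome 6. The median log2 fold of its 7 tested members was 0.27, with 6 above 0, against 56.7% of all tested genes. Groups were apart in 0 of the 7 and 0 had an unadjusted p under 0.05, against 5.65% and 1.43% of all tested genes. For so few genes these counts are near the shares and are not read as a result. Clec4n (Dectin-2), which recognises fungal mannans, was the most abundant at 65.1 CPM per kb. Its values were 70.3, 44.7 and 127 CPM in the controls and 162, 113 and 37.1 CPM with naringin, a log2 fold of 0.26 ± 0.54 (SE). Naringin 1 was the highest library and Naringin 3 the lowest, so the group held both ends of the range, and the log2 fold was -0.18 without Naringin 1 and -0.098 without Control 2.

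Naringin 1 was highest and Naringin 3 lowest in 4 of the 7 tested cluster genes. Clec4a1, whose lowest library was Control 2, stood at 15.2, 7.45 and 18.2 CPM in the controls and at 30.8, 15.6 and 7.63 CPM with naringin. Clec4a2, an inhibitory receptor of dendritic cells, stood at 12.8, 6.79 and 21.1 CPM and at 24.7, 15.0 and 5.60 CPM, and Clec4a3 at 10.6, 10.6 and 17.0 CPM and at 33.0, 17.0 and 7.0 CPM. In all 3 Naringin 1 was the highest library. Their log2 folds were 0.27 ± 0.47, 0.06 ± 0.52 and 0.34 ± 0.47 (SE), and without Naringin 1 they were -0.20, -0.38 and -0.16. Without Control 2, those of Clec4a1 and Clec4a2 were -0.088 and -0.32, and without Naringin 2 that of Clec4a2 was -0.035. The cluster's median was -0.17 without Naringin 1, -0.09 without Control 2, 0.55 without Control 3 and 0.81 without Naringin 3.

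Clec4e (Mincle), a receptor for mycobacterial cord factor, and its partner Clec4d had the highest log2 folds among the Clec genes, at 0.65 ± 0.44 and 0.70 ± 0.33 (SE). Clec4e lay at 2.68, 3.98 and 3.21 CPM in the controls and at 9.92, 7.95 and 2.03 CPM with naringin, so Naringin 1 and 2 lay above and Naringin 3 below all controls. Clec4d lay at 1.84, 0.578 and 1.6 CPM in the controls and at 4.62, 1.80 and 2.17 CPM with naringin, and Naringin 2 lay just under Control 1. Without Naringin 3 the log2 fold of Clec4e was 1.22, and without Naringin 1 it was 0.29. That of Clec4d ran from 0.40 to 0.90 when single libraries were left out. Clec4b1 had a log2 fold of -0.03 ± 0.31 (SE), at 0.841 to 2.67 CPM over the 6 libraries. The remaining members, Clec4a4 with 83 reads in all and Clec4b2 with 21, were under the mean of 1 CPM that testing required.

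**Figure D3:**
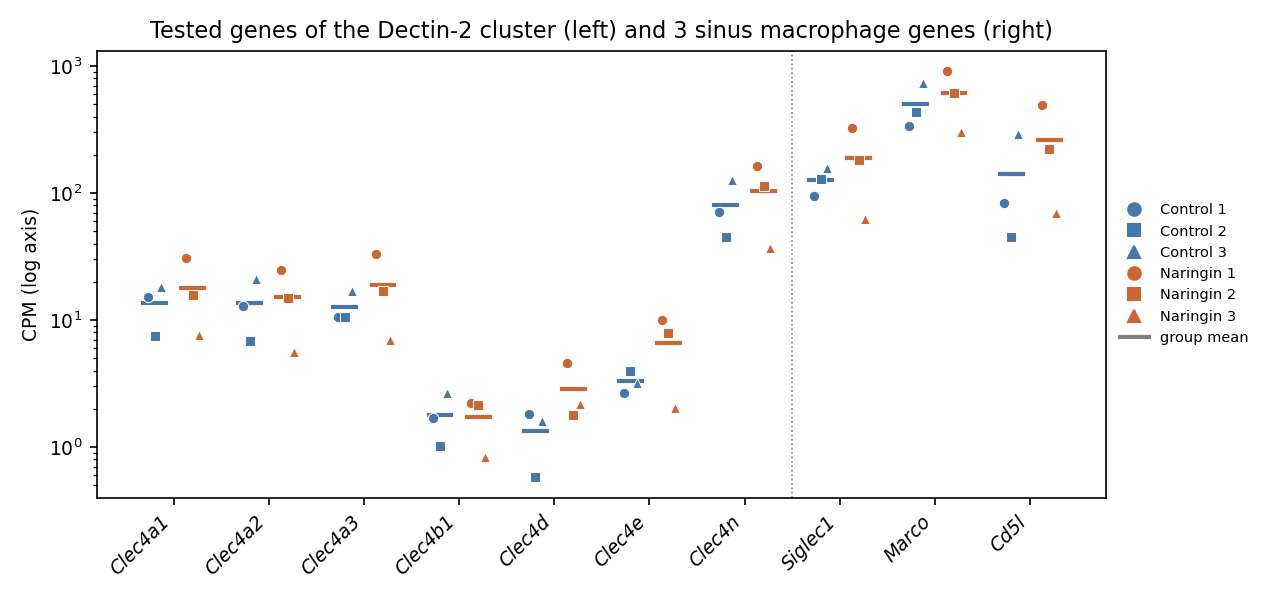
CPM of the 7 tested Dectin-2 cluster genes and of the sinus macrophage genes Siglec1, Marco and Cd5l in each library, on a log axis, with colours and shapes for group and replicate number and bars for group means. Naringin 1 is the highest library in 6 of the 7 cluster genes, in the 3 macrophage genes drawn and in 9 of the 13 tested sinus macrophage markers. C1qa, C1qb, C1qc and Folr2, which are not drawn, are highest in Control 3 and have log2 folds of -0.13, -0.12, -0.10 and -0.23.

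The Dectin-1 cluster, also on chromosome 6, lay near 0, with log2 folds from -0.27 to 0.01 over its 5 tested members and a median of -0.04. Clec7a (Dectin-1), the receptor for fungal beta-glucan, was at 33.4, 24.9 and 31.1 CPM in the controls and at 35.4, 31.0 and 20.2 CPM with naringin, a log2 fold of -0.07 ± 0.22 (SE). Clec9a, by which type 1 dendritic cells sense the actin of dead cells, was at 20.5, 27.3 and 21.3 CPM and at 28.1, 19.7 and 19.6 CPM, a log2 fold of -0.04 ± 0.19 (SE). Clec12a, an inhibitory receptor for uric acid crystals, was at 25.4, 26.7 and 30.8 CPM and at 34.2, 26.6 and 22.5 CPM, with a log2 fold of -0.01 ± 0.17 (SE). The groups overlapped widely in each of them. Clec1a, found on endothelium and myeloid cells, had a log2 fold of 0.01 ± 0.31 (SE). Clec1b, the podoplanin receptor of platelets, had -0.27 ± 0.56 (SE), with 4.97 to 18.6 CPM in the controls and 2.80 to 13.5 CPM with naringin. Its direction turned to 0.19 without Control 3 and to 0.31 without Naringin 3. Clec12b, with 73 reads in all, had 7, 10 and 8 reads in the controls and 24, 19 and 5 with naringin and was not tested.

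Clec10a, a macrophage and dendritic cell receptor for galactose-type sugars, was at 29.8, 38.4 and 53.1 CPM in the controls and at 46.0, 39.9 and 24.2 CPM with naringin. Its log2 fold was -0.15 ± 0.27 (SE), and the groups overlapped. Clec4g, a lectin of sinusoidal endothelium that lies with the Cd209 genes on chromosome 8, had a log2 fold of -0.22 ± 0.41 (SE), which turned to 0.075 without Control 2 and to 0.094 without Naringin 3. It ranged from 1.61 to 6.14 CPM in the controls and from 1.61 to 4.09 CPM with naringin. Clec5a, a myeloid receptor that signals through DAP12, had 0.24 ± 0.27 (SE), with Naringin 1 highest at 12.3 CPM and the other 5 libraries between 5.89 and 8.46 CPM. Clec4f, known from liver macrophages, had 9 reads in all.

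The Clr lectins are ligands of natural killer cell receptors rather than myeloid sensors. Clec2d, which on healthy cells engages the inhibitory receptor Klrb1b, was the second most abundant member per length, at 193 CPM per kb. It stood at 193, 221 and 289 CPM in the controls and at 215, 243 and 245 CPM with naringin, so all naringin libraries lay inside the control range, and its log2 fold was 0.02 ± 0.17 (SE). Clec2i stood at 116, 115 and 72.1 CPM in the controls and at 95.4, 122 and 115 CPM with naringin, with Control 3 the lowest and a log2 fold of 0.16 ± 0.20 (SE), or -0.067 without Control 3. Clec2g, at 0.535 to 2.45 CPM, had -0.21 ± 0.30 (SE). Klrb1b, the receptor for Clec2d, had a log2 fold of 0.11 ± 0.19 (SE). Clec2f had 20 reads, Clec2l 14, Clec2e 4 and Clec2m 3 over all libraries.

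Lastly, 4 Clec genes act outside pattern recognition. Clec14a, an adhesion protein of endothelium, was at 20.6, 30.0 and 33.1 CPM in the controls and at 47.2, 35.9 and 18.5 CPM with naringin, a log2 fold of 0.20 ± 0.33 (SE) that was -0.081 without Naringin 1. Its matrix ligand Mmrn2 had a log2 fold of 0.08 ± 0.26 (SE). Clec3b (tetranectin), which binds plasminogen, was at 13.6, 21.3 and 18.0 CPM and at 16.1, 18.0 and 14.2 CPM, a log2 fold of -0.11 ± 0.19 (SE). Clec16a, a regulator of endosomes and mitophagy, was at 41.1, 43.8 and 25.3 CPM and at 35.0, 36.0 and 39.1 CPM, a log2 fold of 0.03 ± 0.20 (SE) that was -0.21 without Control 3 and -0.01 without Naringin 3. Clec11a, a secreted growth factor of bone marrow and bone, had the lowest log2 fold among the Clec genes, -0.46 ± 0.25 (SE), with 2.29 to 3.94 CPM in the controls and 1.40 to 2.75 CPM with naringin. The groups overlapped in all 4.

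**Figure D4:**
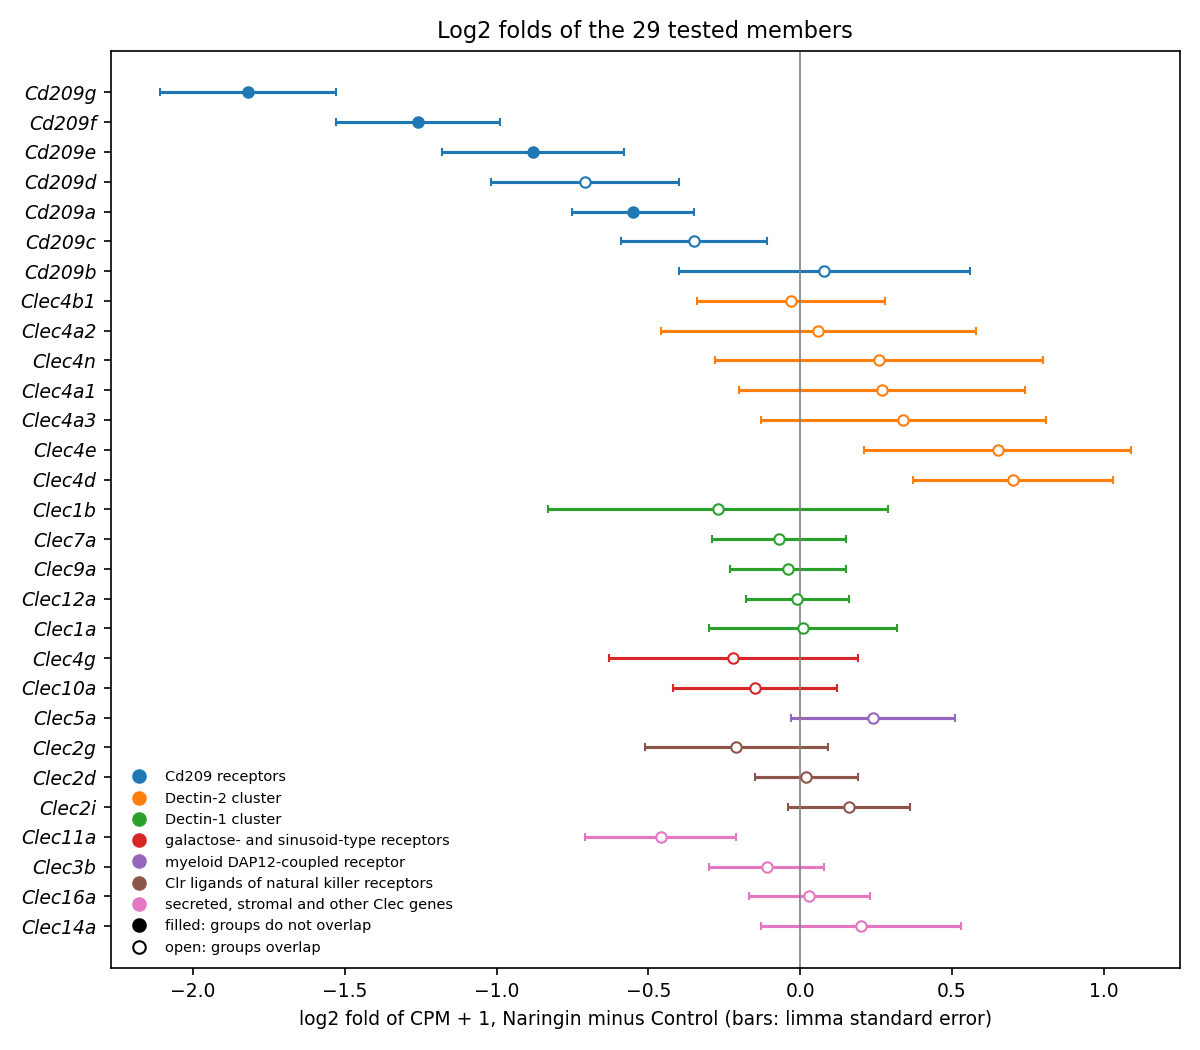
Log2 folds of CPM + 1, Naringin minus Control, for the 29 tested members, with limma standard errors as bars and colours by role; filled points have groups that do not overlap. The filled points are Cd209g, Cd209f, Cd209e and Cd209a, at -1.82 to -0.55, and the 22 Clec genes lie between -0.46 and 0.70.

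One order of libraries, noticed after the values were seen, recurred among the Clec genes and was not that of Cd209f and Cd209g over all 6 libraries. Within the Naringin group alone, Cd209f and Cd209g also fell from Naringin 1 to Naringin 3, at 17.1, 11.7 and 8.13 CPM and at 2.81, 1.80 and 0.981 CPM. Naringin 1 was the highest and Naringin 3 the lowest of the 6 libraries in 9 of the 22 tested Clec genes and in Cd209b, against 6.47% of all tested genes. The same held in 7 of 13 tested markers of sinus macrophages, 5 of 9 of lymphatic endothelium and 6 of 10 of neutrophils. It held in fewer markers of monocytes (2 of 11) and of type 1 (2 of 8) and type 2 (1 of 11) dendritic cells. Among migratory and plasmacytoid dendritic cell markers it held in 0 of 9 and 0 of 7. Of the 15 sinus macrophage markers, the summed level was 1619, 1876 and 3408 CPM in the controls and 3884, 2515 and 1288 CPM with naringin; Vsig4 was at 0 CPM in 5 libraries. The scavenger receptor Marco, a defining gene of medullary macrophages, stood at 339, 437 and 733 CPM in the controls and at 913, 609.9 and 303 CPM with naringin. Divided by Marco, Cd209b was 1.16 ± 0.223 in Control and 1.05 ± 0.149 with naringin, and Clec4n was 0.161 ± 0.0534 and 0.162 ± 0.0346 (SD, n = 3 each). The neutrophil markers summed to 77.1, 81.5 and 321 CPM in the controls and to 328, 187 and 67.7 CPM with naringin. The part of these cell types in the lectin values was not tested.

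Lower values of Cd209a were set beside other dendritic cell genes. Among 20 tested C-type lectin genes outside the Clec and Cd209 names, Mgl2, a galactose-type receptor of dermal type 2 dendritic cells, had groups that did not overlap, at 9.03, 13.2 and 11.4 CPM in the controls and 8.38, 8.95 and 6.86 CPM with naringin (log2 fold -0.42 ± 0.19, SE). No other gene of that list did. Groups were apart in 5.65% of all tested genes, so 1 of 20 is near that share and is not read as a result. The mannose receptor Mrc1 ranged from 57.7 to 78.9 CPM in the controls and from 18.6 to 119.5 CPM with naringin, the dendritic cell receptor Ly75 had a log2 fold of 0.07 ± 0.21 (SE), and langerin (Cd207) -0.29 ± 0.26 (SE). The list had 7 log2 folds below 0 and 13 above, with a median of 0.13, against 43.3% below and 56.7% above over all tested genes.

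Marker lists of dendritic cells differed in direction. Of 11 tested type 2 dendritic cell markers 6 were lower, with a median log2 fold of -0.04, and of 8 type 1 markers 2 were lower, with a median of 0.12. Log2 folds were below 0 in 7 of 9 mature migratory dendritic cell markers, with a median of -0.23. Monocyte markers had 7 of 11 above 0 and a median of 0.30. Over all tested genes 43.3% were below 0 and 56.7% above. Groups were apart in the type 1 marker Irf8 (log2 fold 0.15 ± 0.12, SE), the type 2 marker Mgl2 and the monocyte markers Ace (0.40 ± 0.15, SE) and Treml4 (0.66 ± 0.30, SE). That was 1 of 8 type 1, 1 of 11 type 2, 0 of 9 migratory and 2 of 11 monocyte markers, against 5.65% of all tested genes. Nothing is read from these counts. Limma's adjusted p was 0.9996 for each of Irf8, Mgl2, Ace and Treml4.

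The signalling chain downstream of the Dectin receptors lay near 0. Of 25 tested genes 19 had log2 folds above 0 and 6 below, against 56.7% and 43.3% of all tested genes. Their median log2 fold was 0.05, with 0 past the adjusted threshold. The kinase Syk had a log2 fold of 0.21 ± 0.15, the adaptor Card9 0.09 ± 0.20, and the receptor-coupled adaptors Fcer1g and Tyrobp (DAP12) 0.01 ± 0.29 and 0.00 ± 0.30 (SE). Groups did not overlap in Plcg2 (0.16 ± 0.11) and Vav1 (0.09 ± 0.12), which were higher with naringin, or in Rela (-0.23 ± 0.12), which was lower, all with limma SEs. Over all tested genes 3.36% lay higher and 2.29% lower in this way, and nothing is read from these counts. Of 14 tested ligands and partners 0 had groups apart, against 5.65% of all tested genes. Podoplanin (Pdpn), the ligand of Clec1b, had a log2 fold of -0.02 ± 0.25 (SE).

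Depth was even, at 13074180 to 14976422 reads per library. The T cell gene Cd3e lay at 156 to 248 CPM, the skin keratin Krt14 at 0 to 0.267 CPM and the muscle actin Acta1 at 0.067 to 0.401 CPM. Log2 folds were below 0 in 6 of 6 T cell markers, with a median of -0.21, and above 0 in 5 of 6 B cell markers, with a median of 0.12. Over all tested genes 43.3% were below 0 and 56.7% above. Every naringin library lay below every control in the T cell genes Cd4 (-0.24 ± 0.12, SE) and Cd5 (-0.40 ± 0.13, SE), as in 2.29% of all tested genes. The number of Cd209 genes with all naringin libraries below all controls was 4 or 5 when any 1 library was left out. Groups that are apart stay apart when a library is removed, so this count could not fall under 4 and nothing is read from it. The number of Clec genes with groups apart was 0 to 4, with 8.71% to 27.8% of all tested genes then apart and 3.64% to 16.6% below. Without Control 3 limma called 1 gene (0.00672%), Cxcr4, which is no member, and 9.35% had an unadjusted p under 0.05. Without Control 1 the fifth Cd209 gene was Cd209d, and without Naringin 1 it was Cd209c. Clec4d, Clec4g, Clec3b and Clec11a had groups apart without Control 1, Clec2g and Clec16a without Control 3, Clec9a and Clec11a without Naringin 1, Clec4d without Naringin 2, and Clec4e and Clec14a without Naringin 3.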

How the data were processed

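Libraries were made from total RNA with a NEBNext Ultra RNA kit, per the labels' protocols; the sources used here do not give the annotation or the counting settings, strand included. Per the submitters' processing notes, reads were handled with Trimmomatic 0.39, STAR 2.7.9a, featureCounts (Subread 1.6.0) and edgeR 3.40.0 on build mm39. The deposited table holds CPM; judged from the values, these are each gene's share of a library's reads with no further scaling, since each column sums to 1000000. Its columns are named 1 to 6 and were matched to the serial numbers that open the sample titles. All values above 0 (100%) were whole multiples of 1 read within 0.01, worth 0.0668 to 0.0765 CPM, and no pair of libraries agreed within sampling noise (chi-square per degree of freedom 7.68 to 61.6).

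The 14873 genes averaging 1 CPM or more were tested on log2(CPM + 1) with limma 3.58.1 in R 4.3.3, with trend and robust moderation, 2-sided, adjusted over all of them at 0.05. Such folds understate changes of low genes, and 8 of the 37 members were not tested. Count tests on recovered reads used edgeR 4.0.16 and DESeq2 1.42.0. The main limma test, edgeR and DESeq2 were first tried on simulated counts drawn independently for each gene, without shifts shared across a library. The other settings were not simulated. Named were all Cd209 genes, all Clec genes of at least 1 CPM, with values per library from 10 CPM or where groups are apart, lower members with at least 10 reads, and list genes with groups apart or defining a cell type. Genes named outside this rule were chosen after their values were seen. Members and lists were chosen with earlier results of these data known. Exon lengths came from GENCODE M21 and promoters from RefSeq, both of an older build (GRCm38); 36 and 31 of 37 members matched by symbol.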

Additional observations from a re-analysis of the deposited data

How the results depend on the processing

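Each result was recomputed with a changed pseudocount, filter or scaling, with a replicate block, with plain limma moderation, with the count tools and without each library. The count of called genes, 0 in limma, was 3 with DESeq2 (1 higher, Fgf23, and 2 lower, Cd209f and Cd209g), with 227 at an unadjusted p under 0.05, and 0 to 1 with a library left out; the 1 was Cxcr4, without Control 3. The median log2 fold of the Cd209 genes, -0.71, ran from -1.08 without Control 1 to -0.52 without Control 2, and that of the Clec genes from -0.17 to 0.19. With a replicate block limma's count of calls was 0 (157 genes had an unadjusted p under 0.05), and the medians were -0.71 and 0.015. Same-numbered libraries of the 2 groups did not deviate together (correlations over genes of -0.257, -0.019 and -0.269), so the numbers were not taken as pairs.

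Of the 29 tested members 9 kept their direction under all 17 alternatives: 6 Cd209 genes (all but Cd209b), Clec11a, Clec4d and Clec4e. In Cd209a, Cd209e, Cd209f and Cd209g leaving out a library could not turn the direction, since their groups do not overlap. The same values chose the family, so nothing is read from their kept direction. The share of all tested genes that kept direction was not counted. Apart from leaving out libraries, 26 kept it. The directions of Clec1a, Clec2d and Clec16a, 0.035 or less in size, turned with scaling or tool: with upper-quartile scaling they were -0.027, -0.025 and -0.0071, with median-of-ratios scaling Clec1a was -0.0058 and Clec2d -0.0017, with edgeR Clec2d was -0.014, and with DESeq2 Clec2d was -0.025 and Clec16a -0.014.

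The log2 folds of 20 members turned with some library left out, over these ranges: Cd209b -0.34 to 0.64, Clec10a -0.34 to 0.12, Clec12a -0.17 to 0.12, Clec14a -0.081 to 0.57, Clec16a -0.21 to 0.18, Clec1a -0.3 to 0.28, Clec1b -0.67 to 0.31, Clec2d -0.11 to 0.18, Clec2g -0.51 to 0.078, Clec2i -0.067 to 0.27, Clec3b -0.27 to 0.031, Clec4a1 -0.2 to 0.74, Clec4a2 -0.38 to 0.6, Clec4a3 -0.16 to 0.88, Clec4b1 -0.25 to 0.23, Clec4g -0.65 to 0.094, Clec4n -0.18 to 0.87, Clec5a -0.027 to 0.44, Clec7a -0.23 to 0.16 and Clec9a -0.21 to 0.081.

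Low depth limited Clec2e, Clec2m and Clec4f, with fewer than 10 reads each, and 3 libraries a group limit every comparison. The recounts without each library of Cd209 genes below control (4 to 5) and Clec genes with groups apart (0 to 4, the 4 without Control 1), and of the Dectin-2 median (-0.17 to 0.81), were chosen after seeing the data. The Cd209 count could not fall under 4, since groups that are apart stay apart with fewer libraries.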
